A study of Drosophila melanogaster x Drosophila simulans with 3 samples.

Results

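Exonic regions whose sequence has diverged most between Drosophila melanogaster and Drosophila simulans, while keeping the same length, were examined in heads of F1 hybrids of the 2 species. The regions were chosen from the authors' annotation columns alone, as those with equal length in both species' references, a length over 80 and under 1500 bases and at most 93% identity between the species. The rule used no read count. It took 3157 of the 60040 exonic regions in the count tables, and the other 40074 regions of equal length in the same length range, all over 93% identity, served for comparison. The flies were virgin female hybrids of D. melanogaster strain Berlin mothers and D. simulans strain C167.4 fathers, aged 1 to 1.5 days after collection and frozen in the late afternoon. The 3 libraries are independent replicates of this single group, each made from poly(A)-selected head RNA of 200 pooled flies, and no parental strain was sequenced alongside them in the data used here. Because D. melanogaster was always the mother, an allele's species and its parent of origin cannot be told apart.

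In an F1 hybrid both alleles of a gene sit in the same nuclei and meet the same regulatory proteins, so an unequal number of transcripts from the alleles is commonly used as a sign of divergence in cis. Exons differ in how fast they change between species. Coding exons of broadly and highly expressed genes are usually under strong purifying selection, whereas untranslated exons, noncoding transcripts and genes of immunity, reproduction and environmental response tend to change faster. Sequence difference also decides how a short read can be attributed: a read needs at least a mismatch to one of the alleles to be told apart, and with too many it can be placed on one reference only. The tables pair no region with a gene or a position, so the regions are told by length and identity, identifiers are printed for at most 2 regions per direction, and the head origin could not be checked against marker genes.

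The 3157 regions had a median length of 225 bases and a median identity of 91.5%, down to 77.5%. The comparison regions had medians of 249 bases and 96.95%. Lengths divisible by 3 made up 36.7% of the fast-diverging and 36.7% of the comparison regions. All exonic regions together held 26406916, 26601075 and 29004108 reads in replicates 1, 2 and 3. The fast-diverging regions held 502869, 474290 and 545600 of these, or 1.86% ± 0.0644 (SD, n = 3). Reads that matched both species equally, and so were unassigned, made up only 6.17% ± 0.111 of their reads (SD, n = 3), against 29.7% ± 0.632 in the comparison regions. Exact matches made up 28.1% of their assigned reads in replicate 2, well under the 57.5% and 53.2% of replicates 1 and 3. All exonic regions together differed alike, with 31.3% in replicate 2 against 63.8% and 57.8%.

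Fast-diverging exons were read little in heads. Their level, counted over all 10 read classes and scaled to region length and to all reads of the library's table (RPKM), had a median of 0.468, 0.467 and 0.436 in replicates 1, 2 and 3. The comparison regions had medians of 5.91, 6.02 and 6.68, so the medians of the sets did not overlap, and their gap was many times the spread between libraries. No read was found in any library for 792 fast-diverging regions (25.1%), against 10.6% of the comparison regions. A level of 10 or more was reached by 503, 508 and 533 fast-diverging regions in the 3 libraries, or 16.3% ± 0.509 (SD, n = 3), against 38.6% ± 1.59. Levels of 100 or more were less unequal in share, at 1.95% ± 0.0797 and 3.85% ± 0.224 (SDs, n = 3). An exact two-sided sign permutation test over 3 libraries cannot go below p = 0.25, so these gaps are given by their size and spread.

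Within the set, the median level was higher in the upper identity classes, although not in step. It was 0.264 ± 0.0528 (SD, n = 3) at 85% or less, 0.144 ± 0.0523 (SD, n = 3) at over 85% to 88% identity, 0.324 ± 0.0358 at over 90% to 91% and 0.929 ± 0.0341 at over 92% to 93%. Just outside the limit, the 2057 regions at over 93% to 94% had a median of 1.34 ± 0.0510, and the median was 9.16 ± 0.696 at over 98% to 99%. Across the 3157 regions, identity and mean level had a Spearman's rho of 0.121, which describes regions that share libraries and are not independent replicates. By length, the 406 regions of over 600 bases had the lowest median level, 0.117 ± 0.00633 (SD, n = 3), whereas comparison regions of those lengths had 5.38 ± 0.322. Regions of over 150 to 300 bases had the highest, 0.763 ± 0.0438. In RNA from whole heads, fewer cells that express a region and less RNA per cell cannot be told apart. Levels count placed reads only, and whether reads of fast-diverging regions were placed less often was not tested. The deposited coverage signal for each genotype, whose origin is not stated, was also lower in the fast-diverging regions. Its medians were 2.16 for Berlin and 2.17 for C167.4, against 22.36 and 38.82 in comparison regions.

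**Figure D1:**
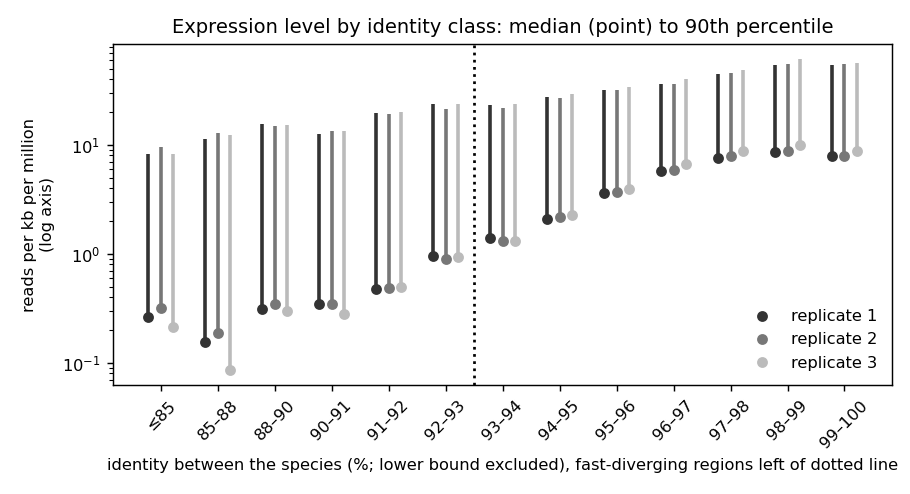
Level (RPKM, log axis) of equal-length exonic regions of over 80 and under 1500 bases, by identity class and library, with a point at the median and a line up to the 90th percentile. Medians in the classes of 93% identity or less stay under 1 in all 3 libraries, and those over 98% to 99% are near 9.

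A few fast-diverging regions were among the abundant ones. The 2 with the most reads held 41.0% ± 0.0749 (SD, n = 3) of all reads of the set and the 10 with the most held 58.8% ± 0.556. Ranked by level, which gives a different set of 10, S16496_SI, of 262 bases and 91.98% identity, came first, with an RPKM of 11304, 11551 and 12580 in replicates 1, 2 and 3. A region of 537 bases and 92.74% identity followed with 9063, 7974 and 8214. These 2 stood far above the rest. The next 4 lay between 1572 and 1912 on average, and the tenth was at 617 ± 74.9 (SD, n = 3), so the order of neighbours among the last 3 of the 10, at 643, 626 and 617, is within the spread between libraries. Among the 10, 3 regions of 313, 239 and 415 bases and 89.78%, 83.68% and 90.60% identity carried close identifier numbers.

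Allelic imbalance in read numbers was called more often in the fast-diverging regions with enough reads than in all tested regions. Testing required an average of 20 allele-assigned reads in the 3 libraries, which 990 of the 3157 regions (31.4%) did, against 54.2% of the comparison regions. Of the 990, 528 (53.3%) were called at an adjusted p under 0.05 by the quasi-likelihood test of edgeR, with p adjusted by Benjamini and Hochberg's method over all 33303 tested regions of the tables, where 35.6% were called. The excess was of D. melanogaster reads in 347 of them, or 35.1% against a background of 23.4%, and of D. simulans reads in 181, or 18.3% against 12.2%. The comparison regions alone were called in 31.0% of 21716 cases. All 3 libraries leaned the same way in 516 of those 528, and the calls themselves rest on these libraries. Without replicate 2, edgeR called 465 of 994 regions (46.8%), against 27.9% of all tested regions. DESeq2 called 360 of the 990 (36.4%), all among the 528, against 17.8% of all tested regions.

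The imbalances were also large. An excess of at least 2-fold was called in 345 of the 990 regions against 9.8% of all tested regions, 233 toward D. melanogaster (background 6.91%) and 112 toward D. simulans (background 2.89%). At 4-fold or more, a size called in 3.33% of all tested regions, there were 107 toward D. melanogaster (background 2.43%) and 46 toward D. simulans (background 0.901%). The median absolute log2 ratio of single libraries was 0.68, 0.72 and 0.69 in fast-diverging regions and 0.38, 0.38 and 0.35 in comparison regions, with no overlap between the sets. Against a minimum log2 ratio of 0.5, edgeR called 338 of the 990, where 11.2% of all tested regions were called.

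**Figure D2:**
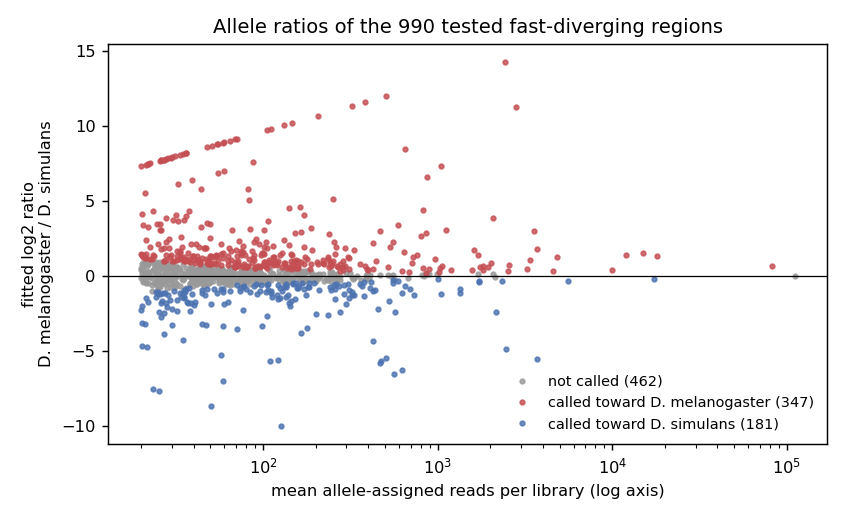
Fitted log2 ratio of D. melanogaster to D. simulans reads against the mean number of allele-assigned reads per library (log axis), 1 point for each of the 990 tested fast-diverging regions, coloured by the call. Points on the rising line at the top are regions with no D. simulans read, whose fitted ratio grows with their reads.

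The fast-diverging regions were called more often than the comparison regions in each of 5 classes of read depth. At a mean of 20 to 50 assigned reads, 44.6% of 372 regions were called against 17.9% of the comparison regions. At 100 to 300 reads it was 60.0% of 250 against 34.4%, and at 1000 or more, 91.3% of 46 against 67.7%. Wilson 95% intervals, which cover the counting error of regions only and take regions as independent, did not overlap in any of the 5 classes. Calls of 2-fold or more were found in 40.3% of the fast-diverging regions at 20 to 50 reads and in 41.3% at 1000 or more, whereas among comparison regions it was 13.4% and 6.97%.

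**Figure D3:**
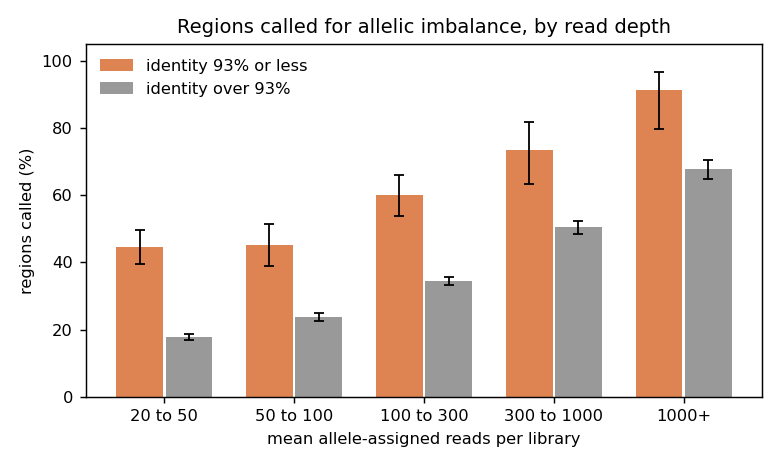
Percentage of tested equal-length regions called for allelic imbalance by edgeR in 5 classes of mean allele-assigned reads per library, for identity of 93% or less and over 93%. Error bars are 95% Wilson intervals over regions, and the fast-diverging bars rise from 44.6% to 91.3%.

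Within the set, the share called was highest in the least similar regions. Of the 17 tested regions with at most 85% identity, 16 were called, each by at least 2-fold, with 11 toward D. melanogaster and 5 toward D. simulans. It was 57.4% of 122 regions at over 88% to 90% and 49.3% of 136 at over 90% to 91%. Just inside the limit, 49.9% of the 441 regions at over 92% to 93% were called, and just outside, 385 of the 855 at over 93% to 94%. Short regions leaned furthest to D. melanogaster. At 81 to 150 bases, 72 calls were toward D. melanogaster against 21 toward D. simulans, with a median log2 ratio of 0.43 over 165 tested regions. In this length class, 4-fold calls numbered 41 toward D. melanogaster against 6 toward D. simulans. The 3082 comparison regions of these lengths also leaned that way, with 186 and 33. At over 300 to 600 bases the median was 0.10, with 84 and 56 calls, and 4-fold calls were 16 and 18.

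The lean also moved with the authors' edits to the D. simulans reference. The tables count, for each strain, the reference positions the authors changed, and 163 tested fast-diverging regions had none altered in the D. simulans one. Of these, 84 calls were toward D. melanogaster against 21 toward D. simulans, with 54 and 4 of them at 4-fold or more. The 827 regions with altered positions had 263 and 160 calls, with 53 and 42 at 4-fold or more. Among the 62 unaltered regions of 81 to 150 bases, 35 were called toward D. melanogaster and 3 toward D. simulans. The 101 longer unaltered regions had 49 and 18 such calls. Altered regions had 37 and 18 among the 103 of 81 to 150 bases, and 226 and 142 among the 724 longer ones. This split was made for fast-diverging regions only, so whether it is particular to them was not tested. The part of the reference in these ratios was not tested, and since the genomic DNA control of the study was not analysed here, a called imbalance is one of reads placed, not by itself one of transcripts.

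Most assigned reads of the fast-diverging regions could be placed on one genome only. In the tested regions the median share of such reads was 76.8% ± 3.62 (SD, n = 3), against 27.1% ± 3.69 in comparison regions. It went from 70.2% ± 3.44 at over 92% to 93% identity to 99.8% ± 0.365 at 85% or less. Among the tested regions, 873 had a mean of 20 or more reads placed on one genome only, 411 had as many that aligned to both genomes and matched one of them better, and 393 had enough of each.

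By the median ratio, the lean to D. melanogaster was seen in reads placed on one genome and not in those placed on both. Pooled over all fast-diverging regions, tested or not, reads placed on both genomes also leaned that way, but by less. Their D. melanogaster share was 52.8% ± 0.876, against 58.6% ± 1.04 in one-genome reads (SDs, n = 3). The comparison regions had 52.0% ± 0.238 and 56.5% ± 0.688 (SDs, n = 3). With one-genome reads, the median log2 ratio over the 873 regions was 0.30, 0.27 and 0.30 in replicates 1, 2 and 3, against 0.15, 0.16 and 0.12 in comparison regions. With reads placed on both genomes, the median over the 411 regions was 0.00 in each library, against 0.04, 0.03 and 0.03. These are different sets of regions, and over the 393 regions with both kinds the median fitted log2 ratio was 0.16 with one-genome reads and -0.03 with reads placed on both. With all assigned reads, the median was 0.27, 0.26 and 0.26 against 0.08, 0.08 and 0.07, a difference of 0.18 ± 0.01 (SD, n = 3, higher in 3 of 3 libraries). An exact two-sided sign permutation test gave p = 0.25 for each of these 3 differences, the smallest that 3 libraries allow. That difference was 0.08 when the comparison was kept to regions at over 93% to 94% identity.

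Imbalance itself was called with each kind of read. By edgeR, reads placed on both genomes called 173 of 411 regions (42.1%) against a background of 26.0% of 28730 regions, 97 toward D. melanogaster (background 15.4%) and 76 toward D. simulans (background 10.6%). One-genome reads called 479 of 873 (54.9%) against 38.3% of 22481, 327 toward D. melanogaster (background 26.6%) and 152 toward D. simulans (background 11.8%). DESeq2 called 94 of the 411 and 320 of the 873, against 10.0% and 18.8% of all regions tested with these reads. Without replicate 2, edgeR called 138 of 404 and 422 of 884, against 19.0% and 29.9%. In the 393 regions with both kinds, each kind gave a call of like direction in 129, 79 toward D. melanogaster and 50 toward D. simulans, which is 32.8% against a background of 17.4%. Opposite directions were called in 10 regions, 2.54% against a background of 1.53%. Of the regions called by both kinds of read, these were 7.19%, against 9.42% in comparison regions. Only the one-genome reads gave a call in 83 of the 393 regions, against 1872 of 11152 comparison regions, and only the reads placed on both in 29, against 1434 of 11152.

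A test of the difference itself, the interaction of allele and placement in edgeR, called 95 of the 393 regions (24.2%), against 14.0% of 20143 regions in the tables. The D. melanogaster share was higher in one-genome reads in 71 of these (background 10.0%) and in reads placed on both in 24 (background 3.97%), and with TMM scaling these counts were 54 and 30. The 2 ratios differed by at least 2-fold in 75 of the 393 regions, called or not. Across these regions they had a Pearson's r of 0.786 and a Spearman's rho of 0.683, as a description over regions that share their libraries.

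**Figure D4:**
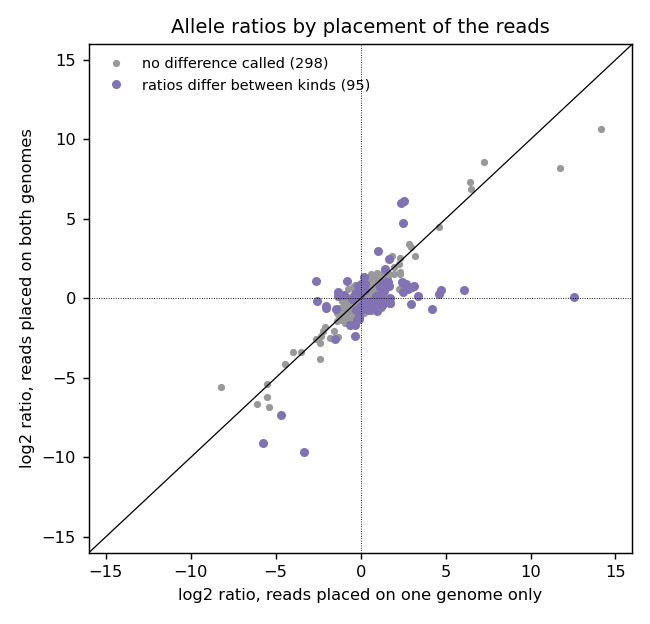
Fitted log2 ratio from reads placed on both genomes against that from reads placed on one genome only, for the 393 fast-diverging regions with a mean of 20 or more reads of each kind. The 95 regions with a called difference (large points) include a row near 0 on the vertical axis that reaches far to the right, toward D. melanogaster, on the horizontal axis.

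The placement split fell unevenly on the regions with the largest ratios. Those named here averaged 100 or more assigned reads, held no fewer than 4 from either allele in each library and the same direction in all 3. Toward D. melanogaster, the 10 largest log2 ratios ranged from 3.08 to 7.33. F21600_SI, of 306 bases and 89.22% identity, had 1111, 842 and 1169 reads of the D. melanogaster allele across the 3 libraries and 11, 4 and 4 of the D. simulans allele. Its log2 ratio was 7.33 ± 0.14 (SE), and all of its assigned reads placed on both genomes were D. melanogaster reads. These were only 35, 45 and 60 reads in the 3 libraries. Another 1193, 968 and 1764 reads of this region matched both species equally and were unassigned. A region of 262 bases and 92.37% identity had 882, 855 and 832 D. melanogaster reads and 9, 11 and 6 D. simulans reads, with a D. melanogaster share of 99.3% ± 0.613 (SD, n = 3) in those placed on both.

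In other regions of this list the placements gave different pictures. In 4 of the 10, reads placed on both genomes had a D. melanogaster share of at least 87.2%, and in the other 6, of which 3 had too few such reads for a test, it lay between 37.8% and 58.9%. A region of 228 bases and 82.02% identity had 731, 866 and 775 D. melanogaster reads against 38, 23 and 48. None of its D. simulans reads was placed on one genome only, while the D. melanogaster share of its reads placed on both was 52.3% ± 2.47 (SD, n = 3). A region of 637 bases and 87.91% identity had shares of 96.4% ± 1.15 and 58.9% ± 3.49, and one of 552 bases and 92.57% identity had 96.1% ± 1.13 and 54.5% ± 5.35 (SDs, n = 3). The interaction was called in these 3 regions, with edgeR adjusted p of 2.5e-23, 7.4e-21 and 2.6e-16. It was not called in the other 4 of the 10 with enough reads of both kinds.

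Toward D. simulans, the direction of the 10 largest ratios was the same with either placement. The ratios ranged from -2.61 to -6.51, and each of the 10 regions was called toward D. simulans by reads placed on both genomes and by one-genome reads alone. The size of the ratio differed between placements in 2 of the 10, S34759_SI and the 203-base region, with edgeR adjusted p of 0.0056 and 0.00023 for the interaction, both further toward D. simulans in reads placed on both. S34759_SI, of 337 bases and 90.80% identity, had 9, 4 and 5 D. melanogaster reads in the 3 libraries against 505, 537 and 634 D. simulans reads, a log2 ratio of -6.51 ± 0.17 (SE). Its D. melanogaster share was 0.168% ± 0.292 in reads placed on both genomes and 1.84% ± 0.631 in one-genome reads (SDs, n = 3). Regions of 220 and 203 bases, at 86.82% and 86.21% identity and with adjoining identifier numbers, were the most read of the 10. Their D. melanogaster shares were 2.12% ± 0.0538 and 3.38% ± 0.700 (SDs, n = 3).

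**Figure D5:**
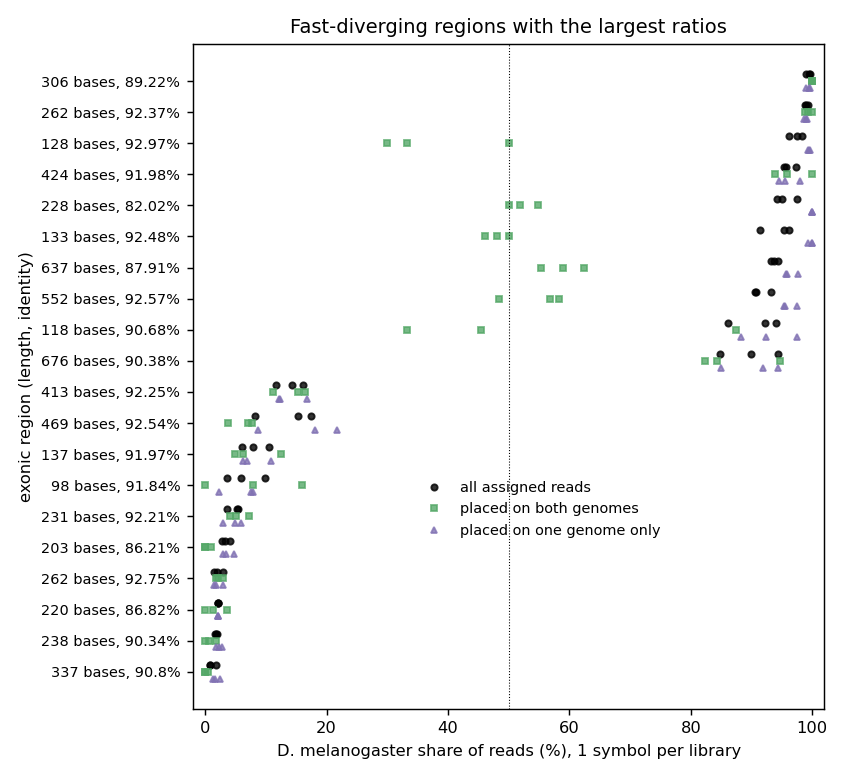
D. melanogaster share of reads (%) in each of the 3 libraries for the 10 fast-diverging regions per direction with the largest ratios among those with reads of both alleles, by all assigned reads, reads placed on both genomes and reads placed on one genome only. Toward D. simulans (lower rows) the 3 kinds of symbol stay together on the left. In 6 regions of the upper rows the both-genome symbols lie well apart from the others, except in replicate 1 of a 118-base region (87.5%).

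With all assigned reads, the 2 most read regions had log2 ratios under 1. S16496_SI had 46430, 48616 and 56846 reads of the D. melanogaster allele across the 3 libraries and 29894, 29412 and 36109 of the D. simulans allele, a D. melanogaster share of 61.4% ± 0.775 (SD, n = 3). The log2 ratio was 0.67 ± 0.03 (SE). By placement its share was 65.4% ± 1.91 in one-genome reads and 52.3% ± 0.908 in reads placed on both genomes, and the interaction had an edgeR adjusted p of 1.6e-13. The 537-base region next in level had 58569, 50511 and 58616 reads against 56868, 52124 and 56059. Replicate 2 had the D. simulans allele ahead and the other 2 replicates the D. melanogaster allele, and no imbalance was called (log2 ratio 0.02 ± 0.03 SE, edgeR adjusted p of 0.65). Exact-match classes alone gave it a log2 ratio of 1.25, and there it was called toward D. melanogaster (edgeR adjusted p of 1e-193).

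The 3 abundant regions with close identifier numbers leaned alike. Of 313, 239 and 415 bases, they had D. melanogaster shares of 74.3% ± 1.62, 72.8% ± 1.90 and 71.5% ± 2.07 (SDs, n = 3), which differ from their nearest neighbour by less than the spread between libraries. One-genome reads gave 73.4% ± 1.45, 74.0% ± 1.86 and 73.4% ± 1.98, whereas reads placed on both gave 78.1% ± 3.12, 44.9% ± 14.9 and 63.5% ± 3.15. The 220-base region above was the only one of the 10 with the highest levels to be called toward D. simulans.

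Of the 5 called regions toward D. simulans with the most reads, 2 were the 220- and 203-base regions above, with log2 ratios of -5.53 and -4.84 that stayed called under every alternative run. The other 3 had small ratios, whose calls changed with the test. S7605_SI, of 1084 bases and 92.62% identity, had 8244, 7667 and 8254 D. melanogaster reads against 9181, 8361 and 10336 D. simulans reads, a D. melanogaster share of 46.5% ± 1.85 (SD, n = 3). The log2 ratio was -0.20 ± 0.04 (SE). Its edgeR adjusted p was 1.2e-06, and 0.18 without the block for replicate. A region of 409 bases and 92.18% identity had a share of 44.9% ± 1.02 (SD, n = 3), a fitted log2 ratio of -0.29 ± 0.05 (SE) and an adjusted p of 0.061 without the block. One of 418 bases and 92.58% identity had 44.6% ± 4.37 and -0.30 ± 0.06 (SE), with an adjusted p of 0.14 in DESeq2 and 0.12 in edgeR without the block. Its exact-match classes alone gave a log2 ratio of -0.06 with an edgeR adjusted p of 0.55. One-genome reads called neither the 409-base region (log2 ratio -0.07, edgeR adjusted p of 0.43) nor the 418-base region (-0.03, adjusted p of 0.83), whereas reads placed on both called each of them, at -0.81 and -0.53.

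In some fast-diverging regions, all or nearly all assigned reads came from one species. At least 98% of assigned reads were D. melanogaster reads in 49 of the 990 (4.95%, background 0.793%) and at most 2% in 11 (1.11%, background 0.21%). In 37 and 4 of them, respectively, no read was assigned to the other allele. The 49 had a median length of 131 bases and the 11 one of 400 bases. A region of 171 bases and 88.30% identity had 2272, 2693 and 2358 D. melanogaster reads and none assigned to D. simulans. Taking 3 counts in all libraries together as the floor, the D. melanogaster allele was at least 2441-fold higher in assigned reads. Its 201, 201 and 228 unassigned reads, which matched both species equally, are not in this value. Toward D. simulans, a region of 400 bases and 91.50% identity had 108, 131 and 139 reads and no D. melanogaster read, and its D. simulans allele was at least 126-fold higher on that floor. Such floors cover the counting error of assigned reads only. In the 49, the median share of assigned reads placed on one genome was 100.0%, and 5 had enough reads placed on both genomes for a test, whereas in the 11 it was 78.6% with 5 testable.

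Regions called in opposite directions by the 2 placements included abundant ones. The one with the most reads, of 108 bases and 87.04% identity, had 1124, 662 and 1162 D. melanogaster reads against 771, 614 and 773 D. simulans reads among those placed on both genomes. Among its one-genome reads there were 118, 77 and 117 against 287, 211 and 283. Each library thus leaned to D. melanogaster by the first kind and to D. simulans by the second, and with all reads no imbalance was called (edgeR adjusted p of 0.071, and 0.0017 without replicate 2). A region of 230 bases and 92.61% identity went the other way, with a D. melanogaster share of 38.4% ± 1.43 in reads placed on both and 94.8% ± 1.34 in one-genome reads (SDs, n = 3). In 3 of the 5 most read regions of this kind the reads placed on both genomes favoured D. simulans.

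The 5 tested regions with the lowest identity, from 80.41% to 82.05%, were all called, and 4 of them toward D. melanogaster. A region of 82 bases and 80.49% identity had 19, 32 and 26 D. melanogaster reads and one of 200 bases and 82.00% had 22, 25 and 34, neither with a D. simulans read. The fifth, the least similar of all tested regions of the set, had 296 bases and 80.41% identity, with 5, 7 and 14 D. melanogaster reads against 33, 18 and 39 D. simulans reads. Only 1 of the 5 had enough reads placed on both genomes for a test.

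Some fast-diverging regions came with others of close number. A fast-diverging region with the number just before or after was found for 1033 of the 3157 (32.7%), and 108 runs held 3 or more, the longest 8. No such share was counted for other sets of regions, so whether this one is high was not tested. The tables do not say whether adjoining numbers are adjoining exons. In the 91 pairs of adjoining numbers with both regions tested, 71 (78.0%) had ratios of the same sign, against 63.5% of 11912 such pairs among comparison regions, and of the 45 pairs with both called, 43 had the same direction, against 1464 of 1701 among comparison regions. These regions are therefore not independent of each other, and the counts above treat each as 1.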

How the data were processed

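The deposited tables gave raw, unnormalised read counts per exonic region in 10 classes, per the file headers. The same tables hold each region's length, the percent identity between the species and the count and percent of altered reference positions per strain, per the file headers. A deposited coverage signal for each genotype has no stated origin. These columns were identical in the 3 tables. The submitters' processing notes name Bowtie. For its version, mismatch limits, genome build and annotation, nothing was found: not given in the sources used here.

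Both alleles of a library come from 1 RNA pool, so edgeR 4.0.16 (R 4.3.3) fitted allele with replicate as a block over the 6 allele columns, for every region of the tables with a mean of 20 or more reads. Both alleles shared 1 library size without scaling, and positive log2 ratios mean more D. melanogaster reads. Each region has 2 residual degrees of freedom of its own, against a median prior shared over regions of 776 with all reads, 41 with reads placed on both genomes and 43 with one-genome reads. Standard errors are the fitted ratio divided by the square root of F. They can be too small for large ratios that rest on few reads of the rarer allele. Placement kinds were compared as an interaction over 12 columns. Single-library ratios used a pseudocount of 0.5. DESeq2 1.42.0 was an alternative. The fits were tested on simulated data. Levels used all 10 classes.

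The regions, lists and tests were chosen with earlier results of these data known. The regions named have the largest ratios, the most reads or the highest levels, the lowest identity, opposite calls by placement, or no read of the other allele.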

Additional observations from a re-analysis of the deposited data

Results flagged for a closer look

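Unassigned reads enter no comparison of alleles, and in 6 of the fast-diverging regions they outnumbered the assigned reads with a mean of at least 20 per library, above the 3 counts that a count of 0 allows. This stands out because at 93% identity or less the median region with 20 or more reads had 0.4% unassigned reads. The largest was a region of 474 bases and 92.19% identity, with 2514, 2624 and 3005 unassigned reads in replicates 1, 2 and 3, a mean of 2714, against a mean of 16.7 assigned reads. F21600_SI, the region with the largest ratio toward D. melanogaster, had a mean of 1308 unassigned reads, or 55.5% of its reads. A region of 174 bases and 91.95% identity had a mean of 119 unassigned reads, one of 140 bases and 90.71% had 73.3, one of 256 bases and 91.80% had 68.0, and one of 278 bases and 92.09% had 40.0. The sources of these reads were not tested.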

How the results depend on the processing

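Leaving out each library in turn gave 453 to 470 called fast-diverging regions with all reads, 128 to 147 with reads placed on both genomes, 392 to 422 with one-genome reads and 74 to 78 for the difference between placements. Without the block for replicate these were 470, 127 and 382 for the first 3, and the fourth was not fitted that way. The count of 528 was 338 against a minimum log2 ratio of 0.5, which asks for larger ratios, and 308, 913 and 111 at identity limits of 92%, 94% and 90%, which hold fewer or more regions. Reads placed on both genomes gave 94 calls in DESeq2 in place of 173, and the cause was not tested. Filters at 10 or 50 reads or none and TMM scaling kept each of the 4 counts within 1.5 times. Exact-match classes, run for all assigned reads only, gave 370. Without a filter, 28.3% of the fast-diverging regions were called with all reads, against 23.8% of all regions. With reads placed on both genomes it was 11.9% against 14.1%, so the excess over the background was lost. One-genome reads gave 26.0% against 18.3%, and the difference between placements 8.20% against 7.53%. TMM scaling moved the median one-genome ratio of all tested regions from 0.14 to 0.00 and that of the fast-diverging ones from 0.26 to 0.12. The difference of medians of 0.18 was -0.034 with reads placed on both genomes, 0.15 with one-genome reads, 0.14 at 100 or more reads and 0.077 against regions at over 93% to 94% identity. Regions with a read in every library had a median level of 4.37, unassigned classes alone 0.00, and library totals without their 100 most read regions 0.73, in place of 0.457. Of 543 values of 46 named regions, 522 kept their direction and side of the threshold, 12 lost their call, 2 gained one and 7 changed sign. None of these 7 was called before or after. For a region of 172 bases they were -0.0053 without replicate 2 (up to 0.11 when another library was left out), -0.031 with TMM and -0.038 with DESeq2 size factors per column. For the 108-base region it was -0.033 with exact-match classes. For the 537-base region they were -0.0014 without replicate 3 (up to 0.053 when another was left out), -0.067 with TMM and -0.075 with DESeq2 size factors per column.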

Other observations

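The coverage signal that the tables give per genotype, whose origin is not stated, varied with the allele ratios of the fast-diverging regions. Across the 990 tested regions, the log2 ratio of the Berlin to the C167.4 coverage and the allele ratio had a Spearman's rho of 0.581 and a Pearson's r of 0.492, as a description over regions that share libraries. Across the 21716 comparison regions these were 0.393 and 0.310, so the relation was not particular to the set. In the 11 regions with at most 2% D. melanogaster reads, the median coverage was 0.61 for Berlin and 85.8 for C167.4. In the 49 regions with at least 98% D. melanogaster reads the medians were 52.66 and 48.25. The 2 most read regions had little C167.4 coverage. S16496_SI had a coverage of 1247 for Berlin and 1.87 for C167.4, and the 537-base region 138 and 0.27. Each was nevertheless read from the D. simulans allele at least 29412 times in every library.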
